A study of Mus musculus with 6 samples.

Results

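Induction of MyoD in transduced C2C12 cells was examined by comparing 2 arrays of cells given doxycycline (MyoD + Dox) with 2 arrays of the same transduced cells without the drug (MyoD no Dox, called uninduced here), 4 of the 6 arrays of the study. All 19505 named genes were compared. The other 2 arrays held nontransduced cells that also received doxycycline (Nontransduced + Dox), and their values are given for each gene described in the Results. C2C12 cells are mouse myoblasts of an established line that stop dividing in low serum and join into multinucleated myotubes. In all 3 groups RNA was taken after 3 days in medium with 2% horse serum, on Clariom S mouse arrays. Both groups compared carried a lentivirus with a MyoD cDNA under a doxycycline-responsive promoter, and the methods describe blasticidin selection of the transduced cells and 1 µg/mL doxycycline for induction. No dose is stated for nontransduced cells, and they had neither virus nor, as far as is described, blasticidin. MyoD + Dox and uninduced cells therefore differed in doxycycline as well as in induced MyoD, and the effects of the drug and of MyoD cannot be told apart between them. No source used here states whether the 2 arrays of a group are separate cultures. The p-values thus reflect only how far these samples spread, and that spread may be technical.

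MyoD is a basic helix-loop-helix transcription factor that pairs with E proteins and binds the E-box, a short palindrome of which CAGCTG is a form it is known to prefer. With the related factor myogenin and with Mef2 proteins it switches on the genes of the contractile apparatus, of the membrane systems that couple excitation to contraction and of muscle metabolism. Cultured myoblasts that enter this programme leave the cell cycle and lower the factors of the undifferentiated state, such as Myf5.

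Myod1, the gene carried by the virus, comes first, as a check on the labels. Values throughout are log2 of the deposited signal, with replicate 1 given before replicate 2. Myod1 read 8.996 and 7.91 on the uninduced arrays, 11.51 and 12.54 on the MyoD + Dox arrays and 8.72 and 10.68 on the nontransduced arrays. Both MyoD + Dox arrays lay above the other 4. The difference between MyoD + Dox and uninduced cells was 3.57 (standard error 0.75, n = 2 arrays a group, unadjusted p = 0.00348 and adjusted p = 0.67 from limma on all 6 arrays). It is not stated whether this probe set detects viral Myod1, endogenous Myod1 or both. Des, which encodes the muscle intermediate filament desmin, read 14.57 and 12.53 in uninduced cells, 15.69 and 15.92 with MyoD + Dox and 14.52 and 16.67 in nontransduced cells, so a muscle transcript was present in every sample.

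The 6 arrays did not fall cleanly by group. At least 2-fold differences were found in 739 genes between the uninduced replicates, in 589 between the MyoD + Dox replicates and in 2921 between the nontransduced replicates. Nontransduced replicate 1 differed from uninduced replicate 1 in only 348 genes, which is fewer than within any pair of 1 group, and nontransduced replicate 2 differed from the uninduced arrays in 3069 and 3868 genes. Between 9355 and 9546 genes an array lay above background, taken as the 90th percentile of 23 background probe sets. Of 9 macrophage markers 8, of 9 endothelial markers 9, of 15 neuron and Schwann cell markers 12 and of 4 erythroid markers 3 were below background on all 6 arrays.

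With all 6 arrays in the fit, limma called 0 of 19505 genes at an adjusted p under 0.05 (lowest adjusted p = 0.67), and an unadjusted p under 0.05 was reached by 824 higher genes (4.22%) and 622 lower genes (3.19%). With the 4 arrays of the comparison alone, 14 genes rose (0.0718%) and 1 gene fell (0.00513%) at an adjusted p between 0.0291 and 0.0406. Under the methods' t-test 839 higher genes and 863 lower genes had an unadjusted p under 0.05, and 0 passed after adjustment, with a lowest adjusted p = 0.398. Over all alternatives tried the lowest adjusted p ran from 0.0291 to 0.999. Since 2 arrays against 2 allow an exact two-sided permutation p no smaller than 0.3333, genes were also described by the gap between the groups. In 314 genes (1.61%) both MyoD + Dox arrays lay at least 2-fold above both uninduced arrays, and in 194 genes (0.995%) both lay at least 2-fold below. These are called higher and lower from here on. The counts were 725 and 552 without uninduced replicate 1, 652 and 600 without MyoD + Dox replicate 1, 356 and 239 without uninduced replicate 2, and 360 and 229 without MyoD + Dox replicate 2. In each of these a single array stood for its group. Counts at an unadjusted p were 250 and 243 without uninduced replicate 2, 523 and 365 without MyoD + Dox replicate 1, 258 and 177 without its replicate 2, and 1649 and 1607 with the 4 arrays alone or without either nontransduced array. The median difference over all 19505 genes was -0.01. The deposited signals were already normalized between arrays, so this value cannot show whether all genes shifted together. Of the 314 higher genes 51 were not above background on either uninduced array, and of the 194 lower genes 26 were not above background on either MyoD + Dox array.

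**Figure D1:**
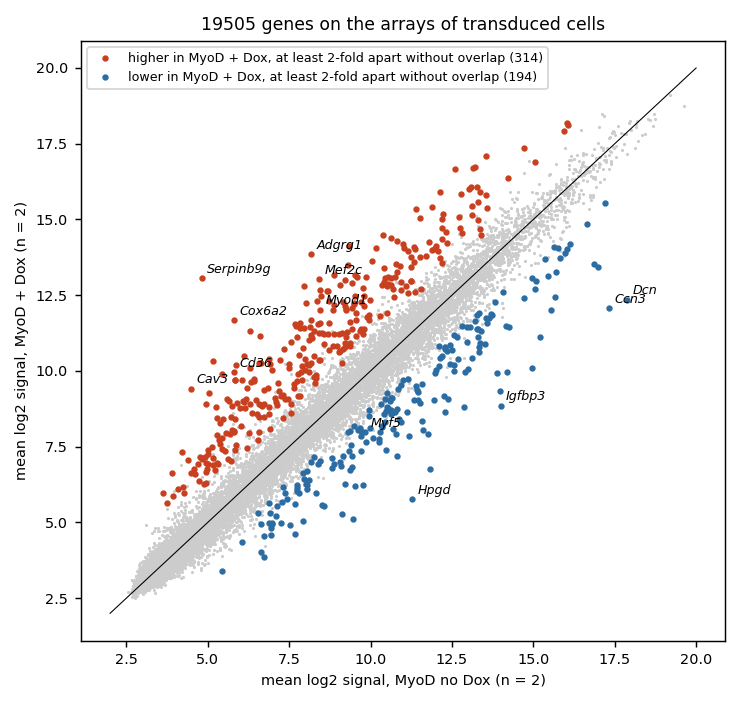
Mean log2 signal of each of 19505 genes on the 2 uninduced arrays (horizontal axis) and the 2 MyoD + Dox arrays (vertical axis), with the diagonal of equal signal. The 314 red and 194 blue genes are those at least 2-fold apart without overlap, and Serpinb9g lies farthest above the diagonal with Dcn, Hpgd and Ccn3 farthest below it.

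The largest difference of all 19505 genes was not in a muscle gene. Serpinb9g, a serine protease inhibitor of the Serpinb9 family whose founding member inhibits granzyme B, read 5.15 and 4.49 in uninduced cells and 12.32 and 13.80 with MyoD + Dox, against 6.81 and 10.18 in nontransduced cells. It was not above background in uninduced cells, and the MyoD + Dox signal was at least 131-fold higher. Such a bound sets the brighter group's mean against the array background, or against the gene's own signal where that is higher. It rose in the fit to 4 arrays (adjusted p = 0.0291 from limma). The nontransduced signals lay between the groups, at least 2-fold above both uninduced signals and at least 2-fold below both MyoD + Dox signals. Measured from the background of the uninduced arrays (6.03 on each), nontransduced replicate 1 was less than 2-fold higher.

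Relatives of Serpinb9g in the same family were also higher. Serpinb9e read 5.87 and 5.01 in uninduced cells, 9.59 and 10.23 with MyoD + Dox and 6.64 and 9.33 in nontransduced cells, at least 14.7-fold higher with induction. Serpinb9f read 6.65 and 6.52, then 9.83 and 10.68, against 7.12 and 8.56 in nontransduced cells. Serpinb9d read 5.94 and 3.97, then 8.90 and 8.93, against 7.12 and 7.39, and was at least 7.38-fold higher. For Serpinb9f, Serpinb9d and Serpinb9g both MyoD + Dox arrays exceeded all 4 other arrays at least 2-fold. Serpinb9c was dimmer, at 4.96 and 4.70, then 7.05 and 7.11, and its nontransduced values of 6.46 and 6.93 lay next to the MyoD + Dox arrays. Serpinb9c, Serpinb9e and Serpinb9f rose in the fit to 4 arrays (adjusted p = 0.0406, 0.0314 and 0.0336 from limma) and Serpinb9d missed the threshold there (adjusted p = 0.0701). The next members were named after their values were seen. Serpinb7 read 4.72 and 3.71, then 7.82 and 6.81, against 5.35 and 4.57 in nontransduced cells, and was above background only with MyoD + Dox. Serpinb9 itself was not higher, at 8.41 and 8.59, then 8.20 and 7.97, with 8.38 and 7.38 in nontransduced cells. Serpinb9b was not higher either, at 9.93 and 8.75, then 8.83 and 6.72, with 9.35 and 7.28. The Serpinb9 genes are close copies of each other, and whether a probe set of one also reads a neighbour's transcript was not tested.

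The other genes with large positive differences mixed muscle proteins with genes better known elsewhere. Cox6a2, the heart and muscle form of a cytochrome c oxidase subunit, read 6.22 and 5.39 in uninduced cells, 10.73 and 12.62 with MyoD + Dox and 7.08 and 12.72 in nontransduced cells, a difference of 5.86. Adgrg1, an adhesion G protein-coupled receptor (GPR56) that is active in early myoblast differentiation, read 8.44 and 7.92, then 13.18 and 14.53, against 8.68 and 14.91, a difference of 5.68. Ctrb1, which encodes chymotrypsinogen B of the pancreas, read 5.73 and 4.59, then 9.25 and 11.40, against 6.05 and 11.37, at least 19.7-fold higher. In each of the 3 the first nontransduced array lay beside the uninduced arrays and the second beside the MyoD + Dox arrays. Adgrg1 rose in the fit to 4 arrays (adjusted p = 0.0314 from limma), while Cox6a2 and Ctrb1 missed the threshold (adjusted p = 0.0546 and 0.0651). R3hdml, which encodes a secreted protein of the CAP family, read 7.25 and 5.37, then 10.79 and 11.85, and at 8.76 and 12.94 both nontransduced arrays exceeded the uninduced arrays at least 2-fold. Padi2, a peptidylarginine deiminase that converts arginine to citrulline, read 6.08 and 5.64, then 9.08 and 11.31, and reached its highest value, 13.19, on nontransduced replicate 2 (6.91 on replicate 1). Camk2a, a calmodulin-dependent kinase best known in neurons, read 9.63 and 8.15, then 12.72 and 13.64, against 10.31 and 13.34.

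Further genes of large difference encode proteins found in muscle. Hspb7, a small heat shock protein of heart and muscle, differed by 4.87 (9.26 and 6.62, then 12.24 and 13.38, against 8.97 and 13.68 in nontransduced cells). Klhl31, a Kelch protein of muscle, differed by 4.36 (7.09 and 5.16, then 9.84 and 11.14, against 7.79 and 11.53). Myl6b, a myosin light chain, differed by 4.23 (8.73 and 7.31, then 11.89 and 12.61, against 9.08 and 12.20). For each of these the second nontransduced array matched the MyoD + Dox range or exceeded it and the first did not. The same held for Smpx, a small protein of the muscle cytoskeleton, at 9.77 and 7.14, then 12.16 and 13.21, against 9.71 and 12.94.

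**Figure D2:**
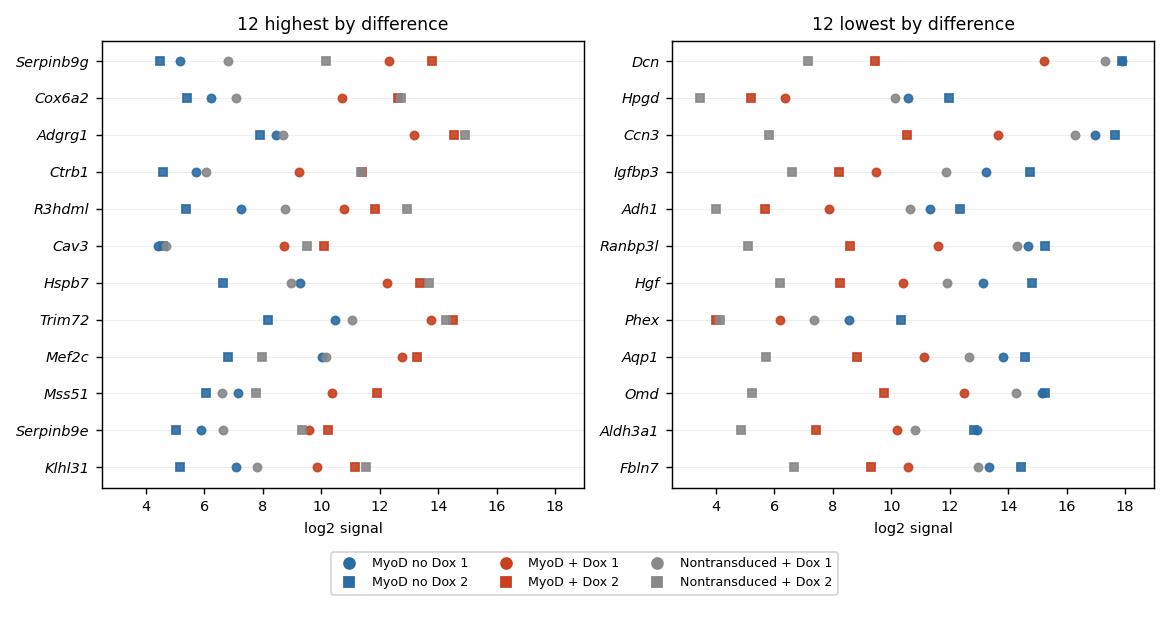
Log2 signal on each of 6 arrays (horizontal axis) for the 12 genes with the highest and the 12 with the lowest difference among genes at least 2-fold apart without overlap. Circles are replicate 1 and squares replicate 2, blue for uninduced, red for MyoD + Dox and grey for nontransduced cells. The grey circles lie mostly beside the blue points and the grey squares beside or beyond the red ones, with Serpinb9g, Mef2c and Mss51 as exceptions.

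The 15 genes called with 4 arrays included, besides Adgrg1 and the Serpinb9 genes, the following. Cav3, the caveolin of muscle that takes part in T-tubule formation, read 4.40 and 4.58 in uninduced cells and 8.73 and 10.11 with MyoD + Dox, at least 10.5-fold higher, with 4.70 and 9.52 in nontransduced cells (adjusted p = 0.038). Dysf, which encodes dysferlin of membrane resealing, read 5.36 and 5.22, then 8.25 and 8.66, at least 5.36-fold higher, with 6.43 and 9.74 in nontransduced cells (adjusted p = 0.0314). Both were below background in uninduced cells. Obsl1, a cytoskeletal linker related to obscurin, read 6.50 and 6.51, then 8.53 and 8.64, against 6.76 and 9.69 (difference 2.08, adjusted p = 0.0406). Ablim3, an actin-binding LIM protein, read 6.42 and 6.23, then 9.51 and 9.78, against 7.48 and 11.67 (difference 3.32, adjusted p = 0.0291). Txlnb, the taxilin of muscle, read 6.82 and 6.61, then 9.30 and 9.45, and both nontransduced arrays, at 8.46 and 9.60, lay on the MyoD + Dox side. Dhrs7c, a dehydrogenase of the sarcoplasmic reticulum, read 6.32 and 6.28, then 8.77 and 9.05, against 6.96 and 8.43. These adjusted p-values are from limma on the 4 arrays. In the fit to 6 arrays 14 of the 15 genes had an unadjusted p under 0.05 and Obsl1 did not.

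The other genes called with 4 arrays were Cd36, Fabp3, Hephl1 and Pla2g7. Cd36, the long-chain fatty acid transporter of the plasma membrane, rose by 4.16 (standard error 0.40 and adjusted p = 0.0406 from limma on 4 arrays), from 6.42 and 5.20 to 9.89 and 10.04, and exceeded both nontransduced arrays, at 7.29 and 7.57, at least 2-fold. Fabp3, the fatty acid binding protein of heart and muscle, rose by 3.47 (adjusted p = 0.0406), from 8.30 and 7.59 to 11.12 and 11.70, with 9.01 and 12.12 in nontransduced cells. Hephl1, a multicopper ferroxidase, rose by 3.87 (adjusted p = 0.038), from 6.26 and 5.39 to 9.43 and 9.96, above the 6.75 and 8.07 of nontransduced cells. The one gene that fell was Pla2g7, the plasma platelet-activating factor acetylhydrolase, by 2.65 (adjusted p = 0.0331), from 9.19 and 9.54 to 6.66 and 6.78, with 8.11 and 4.65 in nontransduced cells.

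**Figure D3:**
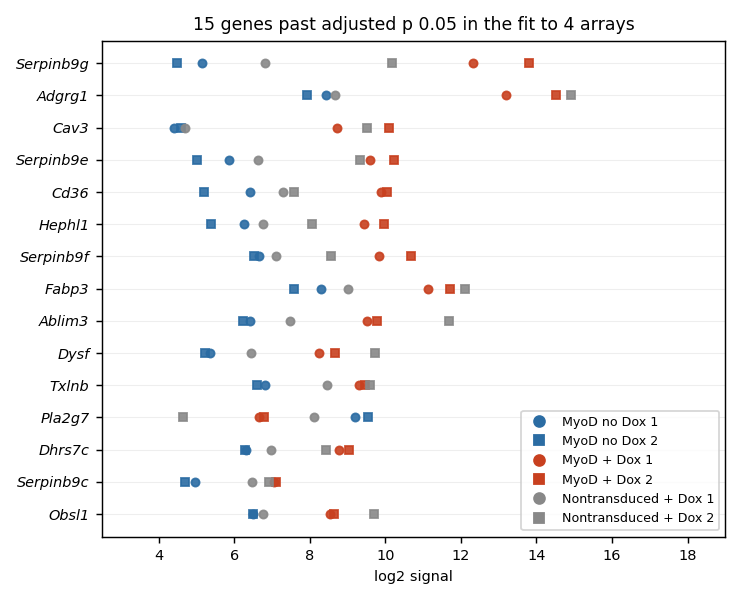
Log2 signal on each array (horizontal axis) for the 15 genes past an adjusted p of 0.05 when limma was fitted to the 4 arrays of transduced cells, in order of the size of the difference. Symbols and colours are blue for uninduced, red for MyoD + Dox and grey for nontransduced cells, circles for replicate 1 and squares for replicate 2. Pla2g7 is the one gene with red points left of the blue ones. Both red points lie right of both grey points for Cd36, Hephl1, Dhrs7c and the Serpinb9 genes shown.

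Promoters of 5 genes are shown because MyoD binds the E-box CAGCTG, which is its own reverse complement and thus reads the same on both strands. Each window runs from 250 bases before the annotated start to 50 bases after it, on the strand of the gene, from RefSeq annotation on GRCm38.p6, with CAGCTG in capitals. Obsl1 (chr1:75506403-75506702, minus strand) holds 2 copies, 187 and 153 bases before the start, and Cav3 (chr6:112459255-112459554, plus strand) holds 1 copy 106 bases before it. Myh4 (chr11:67237562-67237861, plus strand) and Mybpc1 (chr10:88605103-88605402, minus strand), which exceeded all other arrays with MyoD + Dox, hold 1 copy each, 67 and 87 bases before the start. Serpinb9g (chr13:33484540-33484839, plus strand), the gene with the largest difference, has no match in this window. They were picked after matches and values were seen, to show where the letters lie, and that 4 of the 5 hold them says nothing about their frequency.
Obsl1: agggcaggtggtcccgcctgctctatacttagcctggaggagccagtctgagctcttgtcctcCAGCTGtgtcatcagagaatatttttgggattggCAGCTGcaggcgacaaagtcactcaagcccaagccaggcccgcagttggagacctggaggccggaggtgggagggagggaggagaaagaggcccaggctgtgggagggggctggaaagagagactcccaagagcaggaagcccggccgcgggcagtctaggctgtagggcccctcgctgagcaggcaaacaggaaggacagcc
Cav3: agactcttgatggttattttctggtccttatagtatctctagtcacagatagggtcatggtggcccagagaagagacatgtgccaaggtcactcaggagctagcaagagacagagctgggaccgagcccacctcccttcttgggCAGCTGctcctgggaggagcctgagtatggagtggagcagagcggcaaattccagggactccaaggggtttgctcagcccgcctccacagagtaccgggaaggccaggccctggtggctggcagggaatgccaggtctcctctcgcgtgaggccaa
Myh4: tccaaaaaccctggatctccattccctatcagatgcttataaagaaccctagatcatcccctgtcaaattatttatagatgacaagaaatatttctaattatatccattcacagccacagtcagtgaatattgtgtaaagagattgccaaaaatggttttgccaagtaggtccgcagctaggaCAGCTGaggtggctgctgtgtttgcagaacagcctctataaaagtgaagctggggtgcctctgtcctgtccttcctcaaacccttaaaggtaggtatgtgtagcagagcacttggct
Mybpc1: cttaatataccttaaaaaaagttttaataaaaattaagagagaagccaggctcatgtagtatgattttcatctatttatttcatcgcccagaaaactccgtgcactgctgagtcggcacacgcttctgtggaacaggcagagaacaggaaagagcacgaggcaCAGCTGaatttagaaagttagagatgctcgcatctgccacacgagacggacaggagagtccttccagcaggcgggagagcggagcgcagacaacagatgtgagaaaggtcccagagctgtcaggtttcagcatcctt
Serpinb9g: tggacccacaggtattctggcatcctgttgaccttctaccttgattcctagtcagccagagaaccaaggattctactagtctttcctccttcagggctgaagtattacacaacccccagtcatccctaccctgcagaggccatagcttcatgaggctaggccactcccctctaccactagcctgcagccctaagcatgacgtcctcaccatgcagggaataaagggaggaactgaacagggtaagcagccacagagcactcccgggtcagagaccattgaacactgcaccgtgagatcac

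The letters CAGCTG occur in 16.3% of the 32851 promoter windows in the table, and in 18.0% of the 15691 array genes with a window. Among the higher genes 248 had a window, and 85 of them (34.3%) held the letters. Of these, 212 lay outside the 4 muscle lists described below, and 68 (32.1%) held them. Among the lower genes the count was 28 of 141 (19.9%). A different E-box, CACGTG, was present in 9.26% of array genes, 7.26% of the higher and 7.80% of the lower genes. These shares are descriptions, and a match in letters is not evidence of binding.

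Nontransduced cells received doxycycline without the virus, and their position divided the called genes. An array was placed on the side of MyoD + Dox when it lay beyond the midpoint of the gap, taken between the nearest MyoD + Dox and uninduced arrays. For 261 of the 314 higher genes (83.1%) and 151 of the 194 lower genes (77.8%), only nontransduced replicate 2 lay on the MyoD + Dox side. Both nontransduced arrays lay on that side for 22 higher and 40 lower genes, and both on the uninduced side for 25 higher genes and 1 lower gene. Nontransduced replicate 2 went beyond both MyoD + Dox arrays in 206 of the higher and 168 of the lower genes, whereas replicate 1 fell short of both in 307 and 190. The transduced replicates were graded too. Uninduced replicate 2 lay farther from the MyoD + Dox arrays than replicate 1 in 293 of the higher and 170 of the lower genes, and MyoD + Dox replicate 2 lay farther out than replicate 1 in 268 and 177. The part of this grading, shared by arrays with and without the virus, in the differences between groups was not tested.

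A small set of genes stood apart with MyoD + Dox from every other array. Both MyoD + Dox arrays exceeded all 4 others at least 2-fold in 21 genes (0.108%), and lay below all 4 in 1 gene (0.00513%). Mef2c, the MADS-box factor that acts with MyoD, read 10.03 and 6.79 in uninduced cells, 12.76 and 13.28 with MyoD + Dox and 10.18 and 7.96 in nontransduced cells. Mss51, a muscle protein of the mitochondria, read 7.14 and 6.07, then 10.38 and 11.90, against 6.59 and 7.78. Abra, an actin-binding protein of striated muscle, read 5.49 and 4.57, then 9.77 and 8.74, at least 9.37-fold higher, against 6.29 and 7.28. That both nontransduced arrays lay below MyoD + Dox here follows from how these genes were chosen. Etl4 was also among the 21, at 10.08 and 8.35, then 12.72 and 13.26, against 9.33 and 10.64. Myf5, the myogenic factor of undifferentiated myoblasts, was the single gene lower than all others, with 10.28 and 9.39 in uninduced cells, 8.08 and 7.89 with MyoD + Dox and 9.48 and 9.14 in nontransduced cells, a difference of -1.85 (standard error 0.34, unadjusted p = 0.00177 from limma on 6 arrays).

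The rest of the 21 were named after their values were seen. Mybpc1, the slow myosin-binding protein C, read 6.34 and 5.44, then 8.64 and 9.25, against 5.84 and 6.64. Myh4, the fast IIb myosin heavy chain, read 11.29 and 7.76, then 13.22 and 13.12, against 10.72 and 11.83. Foxo1, a forkhead factor that restrains muscle growth, read 8.48 and 8.12, then 9.50 and 9.68, against 8.09 and 8.38. Rbfox1, a splicing factor of muscle and brain, read 5.29 and 4.70, then 7.13 and 7.67, against 5.57 and 4.95. Only its MyoD + Dox signals were above background. Scn3b, a beta subunit of sodium channels, read 3.63 and 3.61, then 5.34 and 6.60, against 3.55 and 4.32, so that only the last MyoD + Dox array was above background. Ppp1r3a, the glycogen-targeting subunit of protein phosphatase 1 in muscle, read 3.87 and 3.95, then 5.998 and 7.25, against 4.47 and 3.56. Here too only the last MyoD + Dox array was above background. Tceal7, Fxyd6, Tcp11x2, Mpp6 and Lyrm4 differed by 2.94, 2.89, 2.67, 1.48 and 1.17. In nontransduced cells they read 5.52 and 6.24 (Tceal7), 5.88 and 6.29 (Fxyd6), 5.07 and 5.26 (Tcp11x2), 9.03 and 9.13 (Mpp6) and 11.20 and 10.56 (Lyrm4).

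In another set, all 4 arrays of cells given doxycycline, transduced or not, lay at least 2-fold above both uninduced arrays in 17 genes (0.0872%) and at least 2-fold below in 22 genes (0.113%). These genes were chosen for a division by the drug, and some were also divided by the virus. Of the 17, Serpinb9g and Serpinb9d were also among the 21 in which MyoD + Dox exceeded all 4 other arrays at least 2-fold. Of the 22, 0 were lower than all 4 other arrays in the same sense. Examples given after their values were seen include Slc16a3, which encodes the lactate exporter MCT4, at 9.59 and 8.91 in uninduced cells, 11.10 and 11.17 with MyoD + Dox and 11.19 and 11.67 in nontransduced cells. Mif, the macrophage migration inhibitory factor, read 10.60 and 9.96, then 11.75 and 11.85, against 11.98 and 12.51. In both genes the 4 doxycycline arrays spanned less than 1 on the log2 scale. Casq1, the calcium buffer of the fast sarcoplasmic reticulum, read 8.77 and 6.81, then 10.74 and 10.30, against 11.17 and 11.25. Trp63, which encodes the p53 relative p63, read 8.55 and 7.14, then 11.22 and 11.60, against 9.70 and 10.54, so the MyoD + Dox arrays were also above both nontransduced arrays. Rbm38, an RNA-binding protein of muscle differentiation, read 8.45 and 7.21, then 11.08 and 12.08, against 9.54 and 13.14.

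Examples of the 22 genes lower on all 4 doxycycline arrays follow. Il33, an alarmin cytokine, read 10.16 and 9.99 in uninduced cells, 8.10 and 7.46 with MyoD + Dox and 8.27 and 6.05 in nontransduced cells. Gas6, the ligand of the TAM receptors, read 12.01 and 13.10, then 10.39 and 9.62, against 10.49 and 6.32. Lama4, a laminin chain, read 9.40 and 9.40, then 8.03 and 7.06, against 7.94 and 8.05. Gfra2, a receptor of the GDNF family, and Ly6c1 followed the same order, with differences of -2.42 and -2.43 and nontransduced values of 11.12 and 8.54 for Gfra2 and 14.17 and 8.97 for Ly6c1. Txnip, a thioredoxin-binding protein that limits glucose uptake, read 14.88 and 15.04, then 13.50 and 12.65, against 13.82 and 12.89. The Wnt receptor Fzd4 read 7.36 and 8.12, then 5.90 and 6.15, against 6.20 and 6.21. Il33, Gas6, Lama4, Gfra2 and Ly6c1 were named after their values were seen.

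The genes with the largest negative differences encode secreted proteins, enzymes and a water channel, among others. Dcn, the small leucine-rich proteoglycan decorin, was close to equal in uninduced cells (17.88 and 17.90) and lower on both MyoD + Dox arrays, at 15.23 and 9.46, with 17.31 and 7.15 in nontransduced cells. The MyoD + Dox replicates were thus farther apart than the group means, whose difference was -5.54 (standard error 3.45, unadjusted p = 0.161 from limma on 6 arrays). Hpgd, which inactivates prostaglandins, read 10.56 and 11.98, then 6.35 and 5.19, against 10.13 and 3.47. Ccn3, a matricellular protein, read 16.98 and 17.64, then 13.64 and 10.52, against 16.28 and 5.81. Igfbp3, an insulin-like growth factor binding protein, read 13.24 and 14.76, then 9.49 and 8.23, against 11.87 and 6.61. In all 4 the lowest value of the 6 arrays was that of nontransduced replicate 2. Hgf, the hepatocyte growth factor that activates satellite cells, read 13.12 and 14.82, then 10.41 and 8.25, and both nontransduced arrays were lower than uninduced cells at least 2-fold (11.89 and 6.20). Adh1, an alcohol dehydrogenase that also oxidises retinol, read 11.32 and 12.35, then 7.86 and 5.68, against 10.64 and 3.99. Aldh3a1, an aldehyde dehydrogenase, read 12.92 and 12.83, then 10.19 and 7.43, against 10.82 and 4.85.

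Phex, Omd and Aqp1 were also among the 12 lowest. Phex, an endopeptidase of osteoblasts whose loss causes phosphate wasting, read 8.56 and 10.33, then 6.21 and 4.02, against 7.34 and 4.15. Omd, the bone proteoglycan osteomodulin, read 15.15 and 15.27, then 12.48 and 9.75, against 14.28 and 5.22. The water channel gene Aqp1 read 13.81 and 14.58, then 11.11 and 8.84, against 12.66 and 5.72. For these genes MyoD + Dox replicate 2 lay at least 4-fold below replicate 1. Ranbp3l (14.66 and 15.25, then 11.60 and 8.58, against 14.31 and 5.11) and the fibulin Fbln7 (13.34 and 14.45, then 10.57 and 9.30, against 12.96 and 6.66) showed the same order. Ces1g, a carboxylesterase, was at 5.28 and 5.29 with MyoD + Dox, not above background, and at 7.78 and 10.49 in uninduced cells, at least 8.04-fold apart, with 6.27 and 4.77 in nontransduced cells. Gpm6b, Spon2 and Arsj, in none of the lists, differed by -3.85, -3.61 and -3.55, with 10.85 and 7.10, 11.83 and 4.79, and 9.81 and 5.73 in nontransduced cells.

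To place single genes in their pathways, 49 lists were counted, which hold 1218 of the measured genes. They were written from textbook knowledge, but with earlier results of these data known. Of the higher genes 90 and of the lower genes 44 belonged to at least 1 list, so that 224 and 150 lay outside all of them. In cultures of mixed states, fewer cells of a type and less RNA per cell cannot be told apart. Counts below are of members called higher or lower by the 2-fold gap, against 1.61% and 0.995% of all genes. Where an unadjusted p under 0.05 from limma on 6 arrays is used instead, the shares of all genes were 4.22% and 3.19%. Where members with a difference above 0 are counted, the number over all 19505 genes was 9545.

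**Figure D4:**
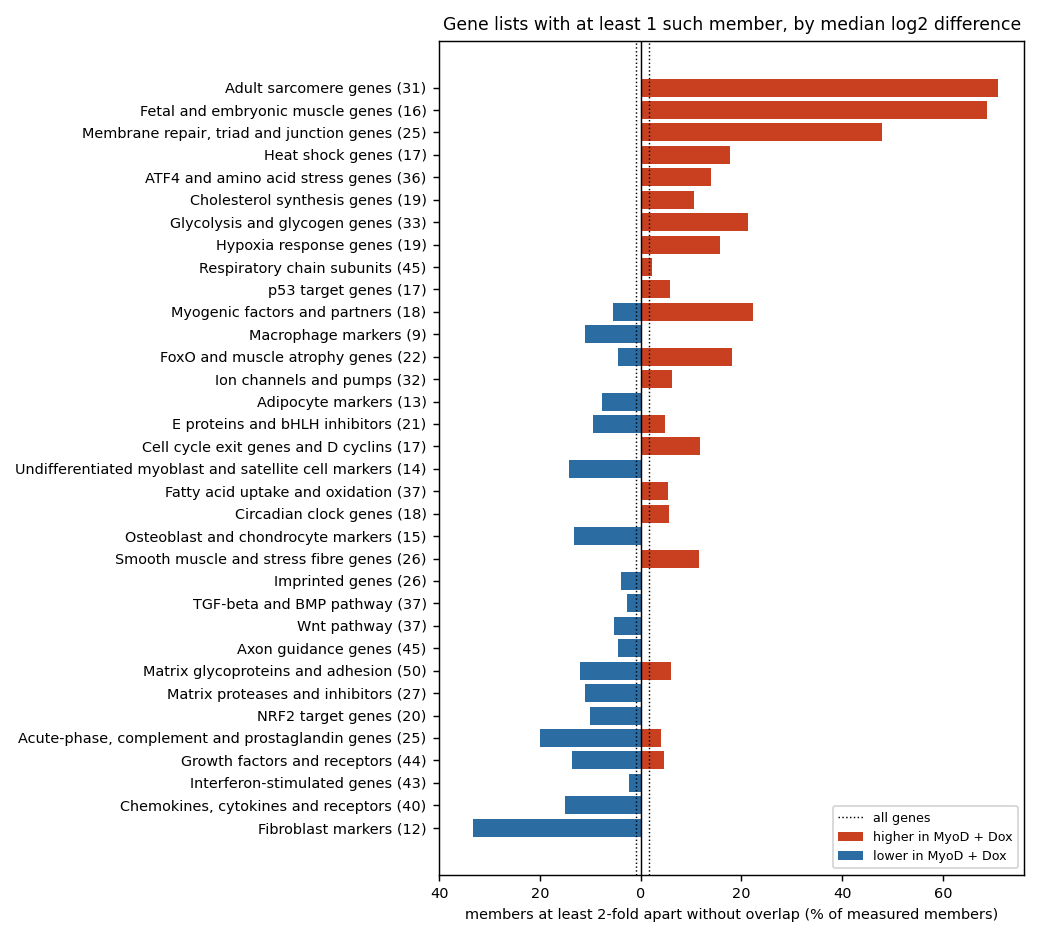
Share of measured members (horizontal axis, percent) that were at least 2-fold higher (red, to the right) or lower (blue, to the left) without overlap, for the lists with at least 1 such member, in order of their median difference. The number measured is in parentheses and the dotted lines mark the shares over all genes, 1.61% and 0.995%. Adult sarcomere genes reach 71.0% higher and fibroblast markers 33.3% lower.

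The muscle lists held the largest shares. Of 31 adult sarcomere genes 22 were higher and 0 lower, with a median difference of 2.81, and of 16 fetal and embryonic muscle genes 11 were higher and 0 lower, with a median of 2.70. Of 25 genes of membrane repair, the triad and the neuromuscular junction 12 were higher and 0 lower (median 1.87). These lists share members, and their median differences were 1.77, 1.58 and 1.27 without uninduced replicate 2, the array with the lowest level of all 3. The mean log2 signal of the adult sarcomere genes was 10.60 and 9.09 in uninduced cells, 12.10 and 12.31 with MyoD + Dox and 10.74 and 12.73 in nontransduced cells. Of the 22 higher sarcomere genes 19 had only nontransduced replicate 2 on the MyoD + Dox side, close to the 83.1% of all higher genes.

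Neb, the nebulin of the thin filament, read 8.94 and 7.76 in uninduced cells, 11.81 and 12.80 with MyoD + Dox and 9.16 and 13.13 in nontransduced cells. Tnni1, the slow skeletal troponin I that is also the fetal form, read 13.96 and 11.20, then 16.45 and 16.88, against 14.55 and 17.42. The light chain Myl4, which fetal muscle shares with the atrium, read 12.77 and 11.47, then 15.82 and 15.99, against 13.74 and 16.04. All 3 kept the order of uninduced replicate 2 lowest and nontransduced replicate 2 highest. Among the triad genes, the calcium release channel Ryr1 read 6.91 and 5.69, then 9.47 and 10.71, against 6.82 and 10.48. The calcium pump gene Atp2a1 read 12.77 and 10.02, then 14.72 and 15.96, against 13.31 and 15.34. Trim72, which encodes the repair protein MG53, read 10.48 and 8.18, then 13.74 and 14.52, against 11.07 and 14.28. Of the 18 myogenic factors and partners 4 were higher (Mef2c, Myod1, Megf10 and Tead4) and 1 lower (Myf5), with a median of 0.38 that was 0.23 without MyoD + Dox replicate 1. In nontransduced cells Megf10 read 10.82 and 13.04 and Tead4 4.94 and 8.52. Tead4 was dim, at 5.02 and 3.46 in uninduced cells and 6.08 and 6.27 with MyoD + Dox. Of these values only that of MyoD + Dox replicate 2 was above background, and the rise was at least 1.11-fold. Myog, which encodes myogenin and is named here as a member that was not called, read 14.20 and 11.35, then 15.11 and 15.18, against 13.88 and 16.50.

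Of 33 glycolysis and glycogen genes 7 were higher and 0 lower (median 0.64). For all 7 only nontransduced replicate 2 lay on the MyoD + Dox side, as it did for 83.1% of all higher genes. Pygm, the muscle glycogen phosphorylase, read 10.13 and 8.50, then 12.78 and 14.21, against 9.91 and 14.31. Pgam2, the muscle phosphoglycerate mutase, read 8.14 and 6.95, then 10.77 and 11.16, against 8.71 and 11.40. Gapdh, which all cells use, read 17.90 and 17.31, then 18.07 and 18.13, against 17.98 and 18.34, a difference of 0.50 (unadjusted p = 0.122 from limma on 6 arrays). Of 45 respiratory chain subunits 1 was higher, Cox6a2, yet 43 of the 45 had a difference above 0 (median 0.59, against -0.01 over all genes). Of 30 proteasome subunits 0 were called by the 2-fold gap and all 30 had a difference above 0 (median 0.65). Psmc3 read 14.07 and 13.63, then 14.83 and 15.13, against 14.15 and 15.01. The mean log2 signal of the proteasome list was 12.65 and 12.22, then 13.04 and 13.13, against 12.71 and 13.48. That of the respiratory chain list was 11.84 and 11.51, then 12.22 and 12.60, against 11.83 and 12.99. In both lists nontransduced replicate 2 was the highest array. Of 45 mitochondrial ribosomal protein genes 0 were called, 36 had a difference above 0 and the median was 0.31, or 0.19 without MyoD + Dox replicate 2. Of 37 genes of fatty acid uptake and oxidation only Cd36 and Fabp3 were higher, with a median of -0.01.

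Biosynthetic and stress genes were higher in part. Of 36 genes of the ATF4 response, which raises amino acid supply, 5 were higher and 0 lower (median 0.70). For all 5 only nontransduced replicate 2 was on the MyoD + Dox side, as for 83.1% of all higher genes. Mthfd2, a mitochondrial folate enzyme, read 10.13 and 8.70, then 11.92 and 12.22, against 10.54 and 13.11. The amino acid transporter gene Slc7a5 read 12.99 and 11.37, then 14.72 and 14.71, against 13.60 and 16.18. Asns, the asparagine synthetase, read 12.70 and 11.68, then 14.24 and 14.49, against 12.99 and 15.66. The highest value of each was on nontransduced replicate 2. Of 20 ER chaperone genes 0 were called (median 0.01). Of 19 cholesterol synthesis genes 2 were higher and 18 had a difference above 0, with a median of 0.65 that was 0.27 without uninduced replicate 2. Dhcr7, the last enzyme of cholesterol synthesis, read 10.53 and 8.88, then 11.98 and 12.56, against 11.24 and 13.19. Ebp, a sterol isomerase, read 11.74 and 10.73, then 12.97 and 12.98, against 12.39 and 13.47. Of 17 heat shock genes 3 were higher (median 0.71, or 0.28 without uninduced replicate 2). These 3 are chaperones of the sarcomere or of heart and muscle (Hspb7, Unc45b and Smyd1), with 6.30 and 9.76 for Unc45b and 10.71 and 13.77 for Smyd1 in nontransduced cells. Hsp90aa1, the stress-inducible Hsp90, read 16.59 and 16.32, then 16.41 and 16.44, against 16.29 and 16.64.

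Of 19 hypoxia response genes 3 were higher and 0 lower (median 0.60). At an unadjusted p under 0.05 from limma on 6 arrays 8 were higher, against 4.22% of all genes. The mean of the list was 10.71 and 10.45 in uninduced cells, 11.09 and 11.26 with MyoD + Dox and 11.22 and 11.24 in nontransduced cells, so the 4 doxycycline arrays lay together. Egln3, an oxygen-sensing prolyl hydroxylase, read 13.01 and 11.65, then 14.45 and 14.73, against 13.84 and 14.56. Higd1a, a mitochondrial protein induced by low oxygen, read 8.59 and 7.94, then 9.59 and 10.03, against 9.44 and 10.97. Car9, a carbonic anhydrase, read 6.62 and 6.55, then 8.12 and 7.83, against 9.13 and 7.22. Uninduced cells were thus the lowest in all 3. A test of the difference from other lists was not made.

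Few cell cycle genes were called. Of 28 S phase genes and of 28 mitosis genes 0 were called by the 2-fold gap, with medians of -0.02 and 0.34. Of the mitosis genes 25 had a difference above 0, and their median was 0.0986 without uninduced replicate 2. The S phase median ran from -0.25 to 0.20 without 1 array in turn. Pcna, the sliding clamp of DNA replication, read 14.87 and 14.98, then 14.88 and 14.92, against 14.94 and 14.37. Mki67, a mark of cycling cells, read 12.95 and 12.92, then 13.15 and 13.46, against 12.82 and 12.07. Of 17 cell cycle exit genes and D cyclins Gadd45a and Ccnd3 were higher (median 0.00), Gadd45a with 12.78 and 13.40 in nontransduced cells. Ccnd3, the D cyclin kept in differentiated muscle, read 15.75 and 14.37, then 16.84 and 16.93, against 15.66 and 17.15. Cdkn1a, which encodes the cyclin-dependent kinase inhibitor p21, missed the 2-fold gap at 17.39 and 16.92, then 18.16 and 18.67, against 17.31 and 18.37. Of 17 p53 target genes 1 was called higher, Eda2r, and 7 were higher at an unadjusted p, against 4.22% of all genes (median 0.49). The median was 0.0554 without MyoD + Dox replicate 2 and 0.87 without its replicate 1. Eda2r, a receptor of the TNF receptor family, read 12.32 and 11.57, then 13.60 and 14.43, against 11.94 and 13.70.

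Of 40 chemokine, cytokine and receptor genes 6 were lower and 0 higher (median -0.50, or -0.25 without MyoD + Dox replicate 2). Of 25 acute-phase, complement and prostaglandin genes 5 were lower and 1 higher (median -0.40, or -0.76 without uninduced replicate 1). Cxcl5, a neutrophil-attracting chemokine, read 16.61 and 17.34 in uninduced cells, 15.17 and 11.66 with MyoD + Dox and 16.01 and 4.17 in nontransduced cells. Cxcl1, of the same family, read 10.91 and 12.23, then 9.53 and 7.19, against 10.96 and 5.08. C1s1, which encodes the complement protease C1s, read 15.24 and 15.82, then 13.75 and 10.28, against 15.004 and 7.99. In each the arrays had the order seen for Dcn, with MyoD + Dox replicate 2 well below replicate 1 and nontransduced replicate 2 lowest. Tslp, a cytokine of barrier tissues, had closer replicates, at 8.10 and 8.58, then 6.39 and 5.55, against 7.29 and 5.38. C1s2 is a close copy of C1s1, and whether its probes, which differed by -3.65 and read 11.68 and 4.28 in nontransduced cells, also read C1s1 was not tested.

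Interferon-stimulated genes divided the MyoD + Dox replicates. Of 43 members 1, Gbp2, was lower and 0 were higher (median -0.47). Gbp2, an interferon-induced GTPase, read 10.23 and 10.32, then 9.17 and 6.77, against 9.21 and 5.19. Their mean log2 signal was 8.20 and 8.11 in uninduced cells, 8.47 and 6.61 with MyoD + Dox and 6.85 and 5.82 in nontransduced cells. MyoD + Dox replicate 1 was therefore the highest array and replicate 2 lay among the nontransduced arrays, and without replicate 2 the median turned to 0.23. Ifit1, an interferon-induced RNA-binding protein named after its values were seen, read 10.02 and 10.34, then 10.63 and 6.81, against 6.30 and 5.36. Antigen presentation genes had 0 of 18 called, and their median of -0.37 turned to 0.0476 without MyoD + Dox replicate 2, with B2m, the light chain of MHC class I, at 18.18 and 18.27, then 18.10 and 17.06, against 17.93 and 15.58.

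Growth factor and matrix genes held members in both directions. Of 44 growth factors and receptors 6 were lower and 2 higher (median -0.41, or -0.20 without MyoD + Dox replicate 2 and -0.74 without its replicate 1). Fgf7, the keratinocyte growth factor, read 15.12 and 16.22, then 13.40 and 11.46, against 14.29 and 5.62. Erbb3, a neuregulin receptor and a higher member, read 7.29 and 4.69, then 9.20 and 8.37, against 6.996 and 9.86. Of 50 matrix glycoprotein and adhesion genes 6 were lower and 3 higher (median -0.30, or -0.12 without uninduced replicate 2), and of 27 matrix proteases and inhibitors 3 were lower (median -0.38). Efemp1, the fibulin-3 gene, read 9.10 and 9.92, then 6.74 and 5.68, against 8.26 and 4.09. Mmp3, the stromelysin that degrades many matrix proteins, read 7.34 and 8.05, then 5.33 and 3.88, at least 2.95-fold apart, against 7.38 and 3.80. Of 25 collagen chain genes, in contrast, 0 were called (median 0.02), with Col3a1 at 16.46 and 16.32, then 16.14 and 15.31, against 16.68 and 13.91. Of 37 Wnt pathway genes 2 were lower (median -0.22). The secreted Wnt modulator Sfrp2 read 16.59 and 17.14, then 14.00 and 13.03, against 15.67 and 6.92.

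Of 12 measured fibroblast markers 4 were lower and 0 higher (median -1.12, or -0.46 without MyoD + Dox replicate 2), namely Dcn, Lum, Twist2 and Gsn, and 5 of the 12 were below background on all 6 arrays. Their mean log2 signal was 8.72 and 8.54 in uninduced cells, 7.77 and 6.63 with MyoD + Dox and 8.44 and 6.22 in nontransduced cells. Their part in the matrix and cytokine differences was not tested. Lum, the proteoglycan lumican, read 10.31 and 9.22, then 6.96 and 5.52, against 9.41 and 4.67. Twist2, a bHLH factor that can inhibit MyoD, read 7.75 and 7.83, then 6.31 and 5.66, against 7.50 and 5.60. Among the E proteins and bHLH inhibitors, which set the activity of MyoD, Twist2 and Snai2 were lower and Hes6 higher of 21, and in nontransduced cells Hes6 read 7.02 and 9.88 and Gsn 16.69 and 13.19. Snai2, a zinc-finger repressor that competes at E-boxes in myoblasts, read 16.32 and 17.00, then 15.27 and 14.41, against 16.13 and 13.65. The E protein gene Tcf4 read 15.62 and 15.68, then 15.69 and 15.63, against 15.81 and 15.88.

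**Figure D5:**
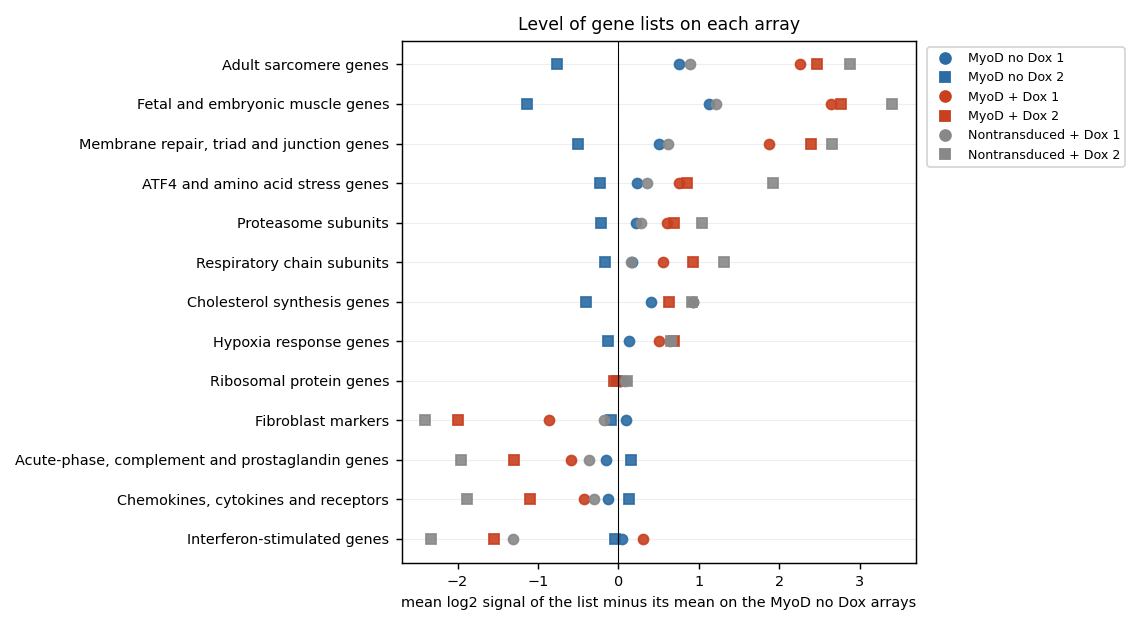
Mean log2 signal of each gene list on each of 6 arrays (horizontal axis), after subtraction of the list's mean on the 2 uninduced arrays. Blue is uninduced, red MyoD + Dox and grey nontransduced cells, with circles for replicate 1 and squares for replicate 2. Muscle lists spread most with uninduced replicate 2 at the left and nontransduced replicate 2 at the right, hypoxia genes place the 4 doxycycline arrays together, and ribosomal protein genes lie near 0 on every array.

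Several other groups gave few calls or none. Of 24 Notch pathway, 25 immediate early, 33 Hox, 21 lysosome and 28 ribosomal protein genes 0 were called by the 2-fold gap, with medians of 0.01, 0.01, -0.14, -0.21 and -0.02. At an unadjusted p under 0.05 each of the Notch, immediate early and Hox lists had 1 member lower and the lysosome and ribosomal lists had 0. Over all genes 3.19% were lower at that threshold. Of 22 FoxO and muscle atrophy genes 4 were higher and Txnip lower (median 0.08, or 0.53 without uninduced replicate 1). Besides Foxo1 these were Trim54, Klhl41 and Trim55, which encode sarcomere-associated proteins, with differences of 3.05, 2.99 and 2.42 and nontransduced values of 8.01 and 11.21 for Trim54, 11.74 and 15.03 for Klhl41 and 7.94 and 11.25 for Trim55. Of 20 NRF2 target genes 2 were lower, the glutathione transferases Gsta4 and Gstm2 (median -0.38), with 12.06 and 9.75 and 10.68 and 8.04 in nontransduced cells. Of 26 smooth muscle and stress fibre genes 3 were higher (Des, Synpo2 and Myl9, the last pair at 11.57 and 13.39 and at 9.01 and 11.59 in nontransduced cells), while Acta2, the smooth muscle actin, read 18.18 and 17.73, then 18.23 and 18.25, against 18.21 and 18.86. Of 15 osteoblast and chondrocyte markers Phex and Sox9 were lower and 12 were below background on all 6 arrays. Sox9, the chondrocyte factor, read 13.27 and 14.12, then 11.996 and 11.79, against 12.23 and 13.18, 1 of 2 lower genes in which only nontransduced replicate 1 lay on the MyoD + Dox side.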

How the data were processed

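Gene expression was measured on 6 Clariom S mouse arrays of differentiated C2C12 cells, 2 for each of 3 groups taken from the labels. The authors deposited 1 table of signal intensity, on a linear scale and normalized between arrays, with a row per probe set (array medians 45.4 to 48.4). Affymetrix Expression Console is named in the submitters' processing notes. The methods name the Transcriptome Analysis Console and, for heat maps, robust multi-array averaging with signal space transformation. The sources used here do not state which setting made the table. The labels name Trizol extraction and the methods the RNeasy kit. Normalization between arrays assumes that most genes do not differ, and can hide a shift common to all genes.

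The log2 of the deposited intensity was taken with no further normalization or filter. A single gene symbol was given for 19572 of 28846 probe sets, no symbol for 9274 and several for 0. Entrez identifiers tied all 19572 to the RefSeq gene table, with 0 changed symbols. Where a gene had several probe sets (55 genes) the brightest was kept, leaving 19505 genes. Precision is limited by the small number of arrays.

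Tests were two-sided, with limma 3.58.1 (lmFit and eBayes) in R 4.3.3 on all 6 arrays, with p-values adjusted over all genes by the Benjamini-Hochberg method at 0.05, and on the 4 arrays of the comparison as the first alternative. Quantile normalization, array medians, filters on dim genes, trend and robust eBayes and a replicate block were tried as well. So were averaged probe sets, signals raised to background, an unpaired t-test and leaving out each array. The block for the 4 arrays alone and the list medians without 1 array were added after the data were seen. The steps were tested on simulated data. The labels number the replicates without saying whether the numbers mark pairs. The correlation of deviations from group means was -0.05 between MyoD + Dox and uninduced arrays, 0.41 and -0.34 between each of these and nontransduced arrays. With 2 arrays a group these correlations cannot decide whether cultures were paired.

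The comparison, the 49 lists and the rule for named genes were chosen with earlier results of these data known. Named genes are Myod1, genes past an adjusted p of 0.05 in either fit, the 12 highest and 12 lowest by difference among genes at least 2-fold apart without overlap (also outside all lists), the 8 highest and lowest among those beyond all 4 other arrays, and up to 4 called members and the brightest other member of each list. Predicted genes and chemosensory receptors were passed over. Others are said to be named after their values were seen.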

Additional observations from a re-analysis of the deposited data

How the results depend on the processing

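Over the settings tried, values of named genes kept their direction and side of the threshold in 2757 cases and changed sign in 13. In 45 cases they passed an adjusted p of 0.05 only in the alternative. These are the 15 genes called with 4 arrays, counted again without each nontransduced array, which repeats that fit. Of the medians of lists 256 moved by less than a log2 cut-off fixed for all lists, 33 moved by more and 3 changed sign as well. That cut-off was not drawn from the spread of the replicates. With the 4 arrays of the comparison alone 14 genes were called higher and 1 lower after adjustment, and 1649 and 1607 at an unadjusted p. Leaving out either nontransduced array repeats this fit, so the upper ends of the ranges of calls below are its counts. Unadjusted, 328 were lower without the dimmest 40% of genes, and 496 were higher and 263 lower among genes above background, where fewer genes were tested. The replicate block gave 740 and 550 unadjusted and 0 and 0 adjusted calls, and, added later, 1522 and 1442 unadjusted and 0 and 0 adjusted with the 4 arrays alone (lowest adjusted p = 0.0584 from limma), against 14 and 1 without the block. Whether replicate numbers pair the samples is not known, so neither set of counts is preferred. Leaving out 1 array in turn, adjusted calls ranged from 0 to 14 higher and 0 to 1 lower, and unadjusted calls from 250 to 1649 higher and 177 to 1607 lower. Genes at least 2-fold apart without overlap ranged from 356 to 725 higher and 229 to 600 lower. With a gap of 1.5-fold there were 688 higher and 586 lower genes, and with 4-fold 77 and 26. When a nontransduced array had to lie at or beyond the nearer array of a group, both lay on the MyoD + Dox side in 3 higher and 2 lower genes, and on the uninduced side in 4 and 0.

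The named genes that changed sign were not called. Tcf4 turned to -0.0121 with array medians subtracted, and Acan and Esam both to 0.1028, the fixed difference of the array backgrounds, with signals raised to the background. Without 1 array in turn Tcf4 ranged from -0.0218 to 0.0394, Esam from -0.1534 to 0.0345, Hsp90aa1 from -0.1689 to 0.1004, Calr from -0.1123 to 0.0442, Pcna from -0.0847 to 0.0346, Adgre1 from -0.1406 to 0.4299, Ctsl from -0.1829 to 0.0008 and Irgm1 from -1.0751 to 0.1894. Among lists, the median of the macrophage markers turned to -1.28 when only members above background were kept, which left 1 gene, Cd14. Without 1 array in turn the median of interferon-stimulated genes ranged from -1.2928 to 0.2343 and that of imprinted genes from -0.1586 to 0.1251. Counting every change of sign whatever its size, 16 of 49 list medians did so without 1 array. Among the 26 lists with a median at least 0.2 from 0 these were 2, interferon-stimulated and antigen presentation genes. The cause of these changes was not tested. Where a group was not above background the size of a difference is only a bound, and the higher and lower calls include such genes. The bound can be under 2-fold, as for Tead4 (1.11-fold) and Kcnj12 (1.92-fold), and it is not printed for each gene.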

Other observations

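Groups outside muscle, metabolism and secreted signals gave single members. Of 45 axon guidance genes 2 were at least 2-fold lower without overlap and 0 higher (median -0.23, or -0.10 without MyoD + Dox replicate 1). Ephb6, an ephrin receptor, read 11.03 and 11.65 in uninduced cells, 9.56 and 8.52 with MyoD + Dox and 11.26 and 5.97 in nontransduced cells. Slit2, a repulsive guidance cue, read 6.71 and 7.45, then 5.47 and 4.96, against 6.51 and 4.62, at least 1.93-fold apart. Of 37 TGF-beta and BMP pathway genes 1 was lower, the BMP antagonist Chrdl1, at 11.21 and 11.05, then 9.65 and 7.62, against 11.22 and 5.46. Bmp4 itself, a ligand of the pathway, was not called at 15.89 and 16.08, then 15.26 and 14.87, and stood far lower on nontransduced replicate 2 alone (16.06 and 10.33).

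Of 18 circadian clock genes the repressor Nfil3 was higher, at 5.84 and 5.58, then 6.99 and 7.10, against 6.33 and 8.45, at least 2.02-fold. Of 32 ion channel and pump genes 2 were higher, Scn3b and the inward rectifier Kcnj12, which read 5.52 and 4.35, then 6.99 and 6.96, against 5.81 and 8.61. Atp1b1, a sodium pump subunit, was not called at 12.70 and 13.88, then 12.03 and 11.35, against 12.46 and 13.14. Of 26 imprinted genes only Dcn was called, as lower. The progenitor marker Cd34, 1 of 2 lower members of the 14 myoblast and satellite cell markers, read 15.24 and 15.66, then 13.55 and 12.73, against 15.46 and 9.40. Of 13 adipocyte markers Plin4, a lipid droplet protein, was lower, at 6.08 and 7.82, then 4.97 and 4.19, at least 1.76-fold apart, against 5.42 and 4.17. Cd14, the only macrophage marker above background, read 7.86 and 7.96, then 6.53 and 6.73, against 7.78 and 6.22.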
